A study of Mus musculus with 6 samples.

Results

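Tissue-specific splicing regulators are RNA-binding proteins that decide, cell type by cell type, which exons of a pre-mRNA are kept. The transcripts of 33 such genes were examined in the developing mouse face after deletion of *Rbfox2*: *Rbfox1* and *Rbfox2* and the muscleblind, CELF, PTB, Nova, Hu/ELAV, STAR, Esrp, TIA and Musashi genes, with *Srrm4*, *Rbm20*, *Rbm24* and *Rbm38*. They were chosen by name from these families, not by their level or their difference, though with earlier results of these data known. Of the 38553 genes in the table they filled 34 rows, because *Qk* was named in 2 of them. The study compared craniofacial tissue of 3 control embryos (*Rbfox2* flox/flox) with that of 3 *Rbfox2* mutant embryos (Pax3Cre/+:Rbfox2 flox/flox), all at E12.5 (E for embryonic day), by sequencing poly(A)+ RNA. All 6 embryos thus carried the floxed *Rbfox2* alleles, and the mutants alone carried the Pax3Cre knock-in allele, which expresses Cre recombinase from the *Pax3* locus in the neural crest and in the paraxial mesoderm and its somite derivatives. The tissue was not sorted, so that cells outside these lineages, such as surface epithelium and endothelium, were measured together with the recombined cells.

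Rbfox proteins bind the element UGCAUG in introns and promote or repress a nearby exon according to the side on which they bind. The 3 mammalian paralogs share their RNA recognition motif and the element they recognise; *Rbfox1* and *Rbfox3* are best known from neurons and, for *Rbfox1*, from muscle, while *Rbfox2* is present in many tissues. Because many exons are read by several regulators at once, the question put to the data was whether the loss of *Rbfox2* was met by more RNA of its paralogs or of the other regulators.

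Expression was measured as FPKM (fragments per kilobase of transcript, scaled to the mapped fragments of the library), a value per length that allows levels of different genes to be set side by side. The FPKM values of a sample summed to between 528123 and 590174. The files hold no read counts, so the depth behind a single value is unknown from them and no counting interval is given. Replicate 1 of each group was set off from the other 4 samples, at -19.1 and -17.0 on a first principal component that held 54.7% of the variance, against 7.55 to 11.0. The markers of cranial mesenchyme, 12 genes, were present in every sample, with a summed FPKM of 940 to 1201 in controls and 885 to 978 in mutants. Those of endothelium (116 to 137 and 121 to 134, 8 genes) and of erythroid cells (5475 to 10779 and 7406 to 10866, 10 genes) were present too. Differences were tested with limma on log2(FPKM + 1) for the 10061 genes above an FPKM of 5 throughout at least 1 of the groups, with p-values corrected over all of them after Benjamini and Hochberg. Of the 33 splicing regulators, 26 passed this filter. The other 7 (*Rbfox1*, *Mbnl3*, *Celf6*, *Khdrbs2*, *Esrp2*, *Rbm20* and *Rbm24*) were tested only in a second fit with an FPKM over 1. *Nova1* and *Nova2* passed through the mutants alone, so that their presence among the tested genes is not independent of their direction.

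*Rbfox2* was the splicing regulator with the largest difference, and its 3 mutant values lay below all 3 control values. *Rbfox2* (ENSMUSG00000033565, GRCm38 chromosome 15 from 77078990 to 77307004, minus strand) had FPKM values of 58.4, 65.0 and 61.3 in control replicates 1, 2 and 3. Mutant replicates 1, 2 and 3 had 38.1, 36.3 and 34.3. The mutant mean was 58.8% of the control mean, a log2 fold change of -0.75 (standard error 0.079, 95% interval -0.94 to -0.56, adjusted p = 0.138, limma with Benjamini-Hochberg adjustment). No gene of the table reached an adjusted p under 0.05 in this fit, so that the adjusted p of *Rbfox2* missed the threshold although the groups were fully apart. Within replicates 2 and 3 the log2 fold change was -0.82 (limma, adjusted p = 0.0407), and between the first replicates the log2 difference was -0.61. A gene-level FPKM also counts transcripts that lack only the floxed exons, and in bulk tissue fewer cells that express a gene and less RNA per cell cannot be told apart.

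*Rbfox1* was the splicing regulator with the lowest mean level in controls, and a single mutant stood out. *Rbfox1* (ENSMUSG00000008658, plus strand of chromosome 16 from 5885355 to 7411526) had an FPKM of 3.05, 2.89 and 3.43 in control replicates 1, 2 and 3 and of 7.25, 3.50 and 2.89 in mutant replicates 1, 2 and 3. Mutant replicate 1 was therefore above every other sample, while replicate 2 lay just above the control range and replicate 3 at its lower end. The log2 fold change was 0.35 (standard error 0.26, 95% interval -0.27 to 0.97) in the fit with the lower filter, and the groups overlapped (exact permutation test, two-sided, p = 0.40). The log2 difference within the replicate numbers was 1.03, 0.21 and -0.19. The summed FPKM of 12 neuronal markers in that sample, 1009.9, was the lowest of the mutants.

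*Rbfox3*, which encodes the neuronal nuclear antigen NeuN and was read as the remaining paralog, had an FPKM of 7.27, 5.16 and 5.47 in controls and of 6.94, 8.46 and 5.29 in mutants. Its groups overlapped and the log2 fold change was 0.17 (standard error 0.18, 95% interval -0.24 to 0.59). The summed FPKM of *Rbfox1* and *Rbfox3* was 10.3, 8.05 and 8.90 in controls and 14.2, 11.96 and 8.18 in mutants, a mean difference of 2.35 within overlapping groups (exact permutation test, two-sided, p = 0.30). For *Rbfox2* alone the mean difference was -25.3. *Rbfox1* and *Rbfox2* together had a summed FPKM of 61.5, 67.9 and 64.7 in controls and of 45.3, 39.8 and 37.2 in mutants. That sum reached 63.0% of the control mean in mutants, and the groups were apart (p = 0.10 in a two-sided exact permutation test, the minimum for 3 against 3 samples). With *Rbfox3* added, the sum was 68.7, 73.0 and 70.2 in controls and 52.2, 48.3 and 42.5 in mutants, 67.5% of the control mean. *Rbfox2* made up 87.1% ± 2.01 (SD, n = 3) of the summed FPKM of the 3 paralogs in controls and 76.3% ± 4.06 (SD, n = 3) in mutants, so that it was still the most abundant of them in every mutant.

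**Figure D1:**
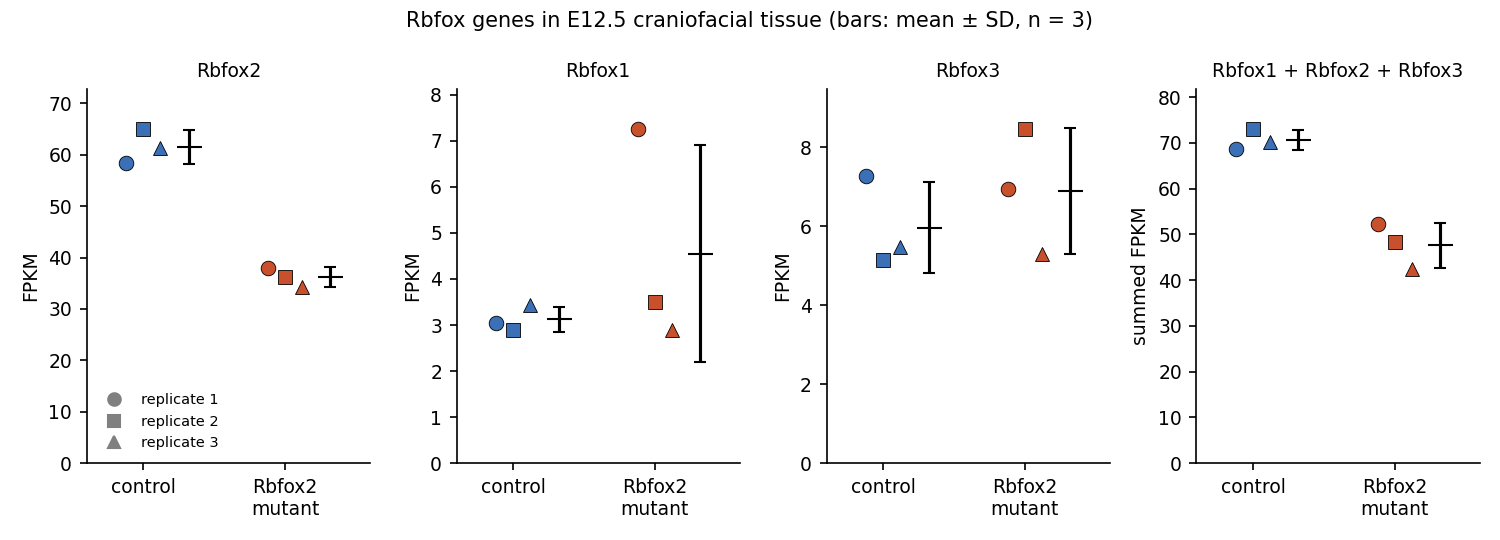
FPKM of *Rbfox2*, *Rbfox1* and *Rbfox3* and their sum in each sample, on linear axes from 0, with symbols for the replicate numbers and bars for the mean ± SD of 3 samples. The mutants sit between 34.3 and 38.1 for *Rbfox2*, below all controls, whereas for *Rbfox1* only mutant replicate 1, at 7.25, leaves the range of the other samples.

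The sequences of the paralogs were compared to see whether reads could be assigned to the wrong one. Over the annotated transcripts of GENCODE M21 (GRCm38), no stretch of 50 bases of *Rbfox1*, *Rbfox2* or *Rbfox3* occurred in a transcript of another gene. The longest stretches that the transcripts of each pair have in common are shown here 5′ to 3′, since they are what a read could confuse, in lower case throughout because every base is shared.
*Rbfox1* and *Rbfox2*: accgtggtagagggccgtaaaatcgaggt
*Rbfox1* and *Rbfox3*: caggatggattttatggtgc
*Rbfox2* and *Rbfox3*: agtgcgcccctccc
They are 29, 20 and 14 bases long. The first lay in the coding sequence of the 6 *Rbfox1* and 8 *Rbfox2* transcripts that hold it, and the second in that of 4 *Rbfox1* and 6 *Rbfox3* transcripts. The third was not contained in the annotated coding sequence of the 3 *Rbfox2* and 2 *Rbfox3* transcripts with it. Among the other splicing regulators, the share of 50-base stretches found in another gene's transcripts was at most 4.75%, for *Ptbp1*.

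In controls the regulators spanned mean FPKM values from 3.12 for *Rbfox1* to 214 for *Ptbp1*. *Ptbp1*, the polypyrimidine tract-binding protein that represses neuronal exons outside the nervous system, had an FPKM of 203, 219.6 and 220.2 in controls and of 221, 219 and 225 in mutants. *Khdrbs1*, which encodes the STAR protein Sam68, had 138, 130.2 and 136 in controls and 134, 137 and 141 in mutants. In both genes the groups overlapped and all 6 samples were close together. *Msi1*, the Musashi protein of neural progenitors, had an FPKM of 97.8, 62.6 and 83.7 in controls and of 88.4, 96.1 and 93.8 in mutants, where control replicate 2 was the low sample. *Tia1*, which binds U-rich sequence beside 5′ splice sites, had 89.1, 71.1 and 59.1 in controls and 76.7, 52.0 and 57.9 in mutants. *Qk*, the quaking STAR protein, had 73.2, 56.9 and 64.7 in controls and 76.8, 60.3 and 62.8 in mutants. *Tia1* and *Qk* were highest in the first replicate of each group. By mean FPKM *Rbfox2* ranked 7 of 33 in controls and 13 of 33 in mutants. Its share of the summed FPKM of all 33 genes was 5.19% ± 0.651 in controls and 3.01% ± 0.11 in mutants (SD, n = 3), while that sum itself was 0.68% higher in mutants, with overlapping groups.

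**Figure D2:**
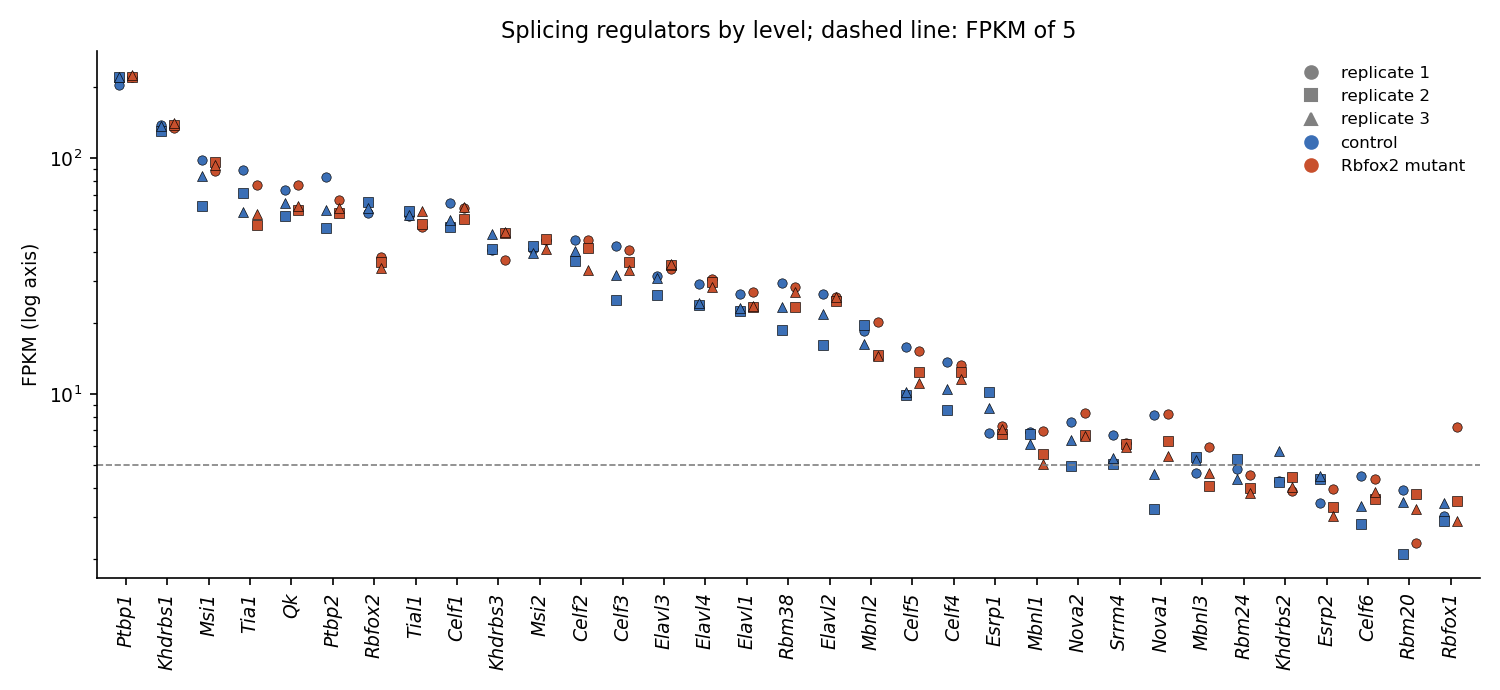
FPKM of the 33 splicing regulators in each sample on a log axis, ordered by the control mean, with controls in blue, mutants in orange and a dashed line at an FPKM of 5. The orange symbols of *Rbfox2* alone lie well below the blue ones, and *Ptbp1* heads the order at 203 to 225.

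None of the 26 tested had an adjusted p under 0.05 (limma), as for all 10061 genes (0%), and 2 of the 26 had an unadjusted p under 0.05, where 1.66% of all genes did. These were *Rbfox2*, which was lower, and *Elavl3*, which was higher. At this threshold 0.954% of all genes were lower and 0.706% were higher. The same 2 genes were the tested regulators whose groups did not overlap, a pattern shown by 503 of all genes (5%), with 2.63% higher and 2.37% lower. The adjusted p was 1.0 for the 25 tested regulators other than *Rbfox2* (limma with Benjamini-Hochberg adjustment). Their log2 fold changes ran from -0.23 for *Esrp1* to 0.33 for *Nova1*. With the replicate number as a block, 4 of the 26 had an unadjusted p under 0.05 (*Rbfox2* and *Tia1* lower, *Elavl3* and *Elavl4* higher) where 6% of all genes did, and none an adjusted one. With a term for the first replicates instead, the count was also 4 (6.07% of all genes), and *Rbfox2* had an adjusted p of 0.0296 (limma), where 0.0298% of all genes were under 0.05.

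The intervals bound how large a rise in the bulk tissue could have gone unseen. A rise confined to part of the cells is not bounded by them. The upper 95% limit of the fold change was under 2-fold for all 32 regulators other than *Rbfox2* and under 1.5-fold for 28 of them, on the log2(FPKM + 1) scale, which understates the change of genes at low FPKM. The 2-fold bound was not kept for *Nova1* in 9 of the 16 alternatives, where its upper limit reached up to 1.23 on the log2 scale, nor for *Rbfox1* without a filter. The highest limits of the fits described above were, on the log2 scale, 0.99 for *Nova1* and 0.97 for *Rbfox1*. At their control means of 5.32 and 3.12 FPKM, these limits do not keep the fold change of FPKM itself under 2-fold. Of the 33 means 20 were higher and 13 lower in mutants. Among the 26 tested, of which *Nova1* and *Nova2* passed through the mutants alone, 18 were higher, against 52.8% of all genes. The median log2 fold change of the 26 was 0.065, against 0.0057 over all genes tested, and the median absolute value was 0.15 against 0.054.

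**Figure D3:**
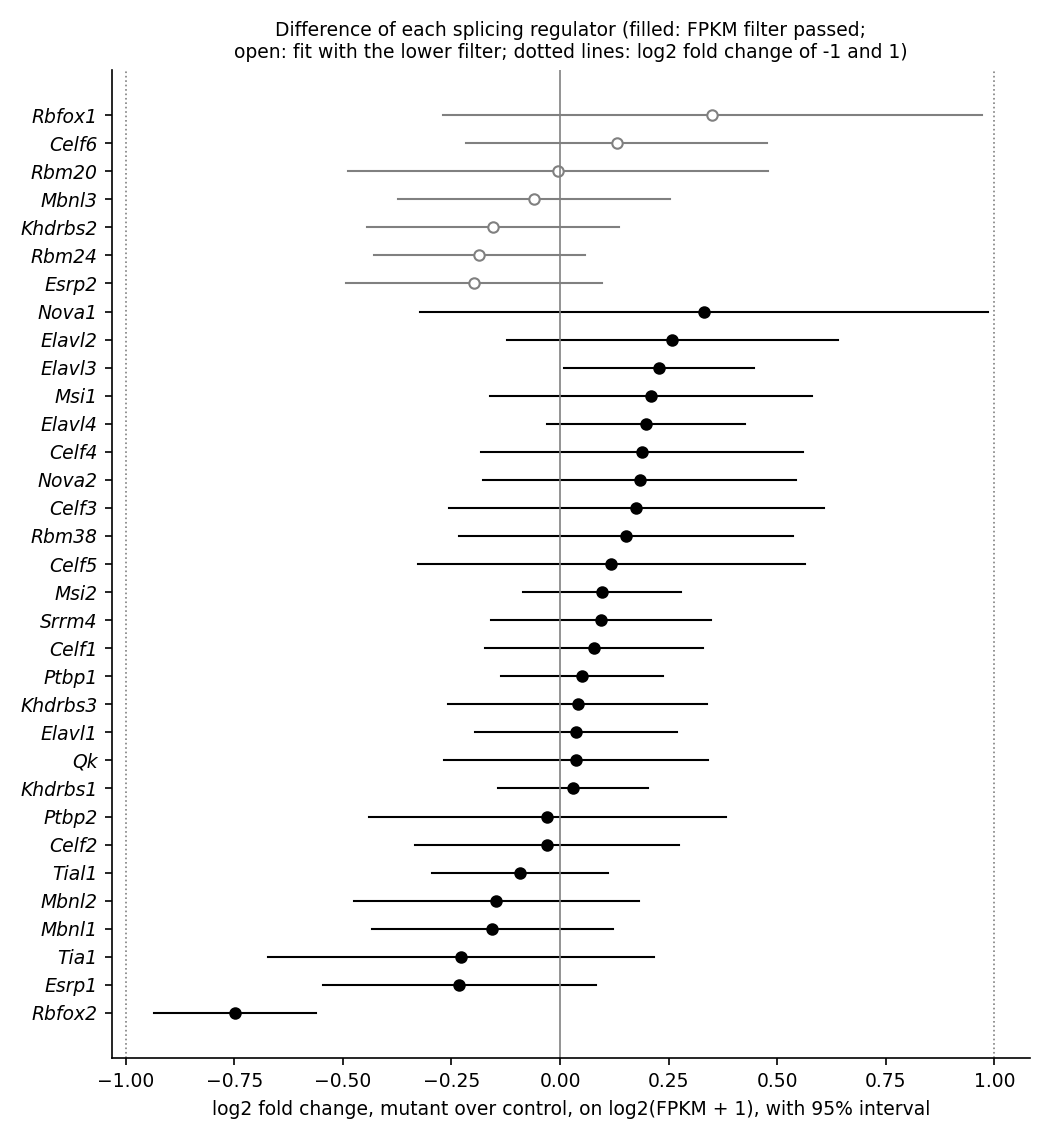
The log2 fold change (mutant over control, on log2(FPKM + 1)) of each of the 33 splicing regulators with its 95% interval from limma, filled for the 26 that passed the FPKM filter and open for the 7 fitted with the lower filter. *Rbfox2* lies apart at -0.75 with its interval below 0, and the interval of *Elavl3* alone lies above 0, from 0.0099 to 0.45.

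The Hu/ELAV proteins bind AU-rich RNA. *Elavl1* (HuR) is found in most cells and *Elavl2*, *Elavl3* and *Elavl4* (HuB, HuC and HuD) mark neurons. *Elavl3* (ENSMUSG00000003410, minus strand of chromosome 9 from 22015005 to 22052023) had an FPKM of 31.7, 26.2 and 31.1 in controls and of 33.7, 35.1 and 35.6 in mutants. All mutants were above all controls, and control replicate 2 was the low sample. The mean was 17.3% higher, and the log2 fold change was 0.23 (standard error 0.093, 95% interval 0.0099 to 0.45, unadjusted p = 0.043 from limma). The unadjusted p was between 0.050 and 0.14 after median-ratio scaling or quantile normalization, with Y-linked expression as a covariate, and without any 1 sample other than control replicate 1, while the log2 fold change stayed between 0.14 and 0.30 over all alternatives. Its annotated exons overlap *Gm49318* on the same strand over 3.72% of their bases. *Elavl2* had a log2 fold change of 0.26 (standard error 0.16) and *Elavl4* of 0.20 (standard error 0.097), and in both the groups overlapped. *Elavl1* had 0.037 (standard error 0.099). The FPKM of *Elavl2*, *Elavl3* and *Elavl4* summed to 87.4, 66.0 and 77.3 in controls and to 90.1, 89.8 and 89.6 in mutants, 16.8% higher and without overlap (exact permutation test, two-sided, p = 0.10).

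The summed FPKM of 12 neuronal marker genes, none of them a splicing regulator, was 924, 867 and 897 in controls and 1009.9, 1093 and 1047 in mutants, 17.2% higher, with no overlap. *Tubb3* alone made up 95.1 of the mean difference of 154 FPKM. Of the 12 markers, 11 passed the filter and 10 of these were higher, where 52.8% of all genes were; *Tubb3*, *Map2* and *Dcx*, which encode a neuronal tubulin, a dendritic microtubule-associated protein and doublecortin of migrating neurons, had an unadjusted p under 0.05 (limma), where 0.706% of all genes were higher at that threshold, and no adjusted p was under 0.05. The other 8 had log2 fold changes from -0.064 for *Nefm* to 0.18 for *Snap25*, and none of the 12 was at 0 in any sample. Erythroid markers were also higher in 8 of 8 tested (median log2 fold change 0.37), mesenchyme markers lower in 10 of 12 and muscle markers lower in 8 of 8, of which *Col1a1* alone had an unadjusted p under 0.05. The part of the tissue's make-up in the *Elavl3* difference was not tested. Set against the summed markers, a ratio chosen after the values were seen, *Elavl3* amounted to 33.1 ± 2.51 FPKM per 1000 FPKM of markers in controls and 33.2 ± 0.925 in mutants (SD, n = 3), with overlapping groups. *Elavl2*, *Elavl3* and *Elavl4* together amounted to 85.7 ± 9.21 and 85.7 ± 3.55 per 1000 FPKM (SD, n = 3). For all 12 neuronal regulators the ratio was 248 ± 44.8 in controls and 231 ± 20.2 in mutants (SD, n = 3), with overlapping groups.

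**Figure D4:**
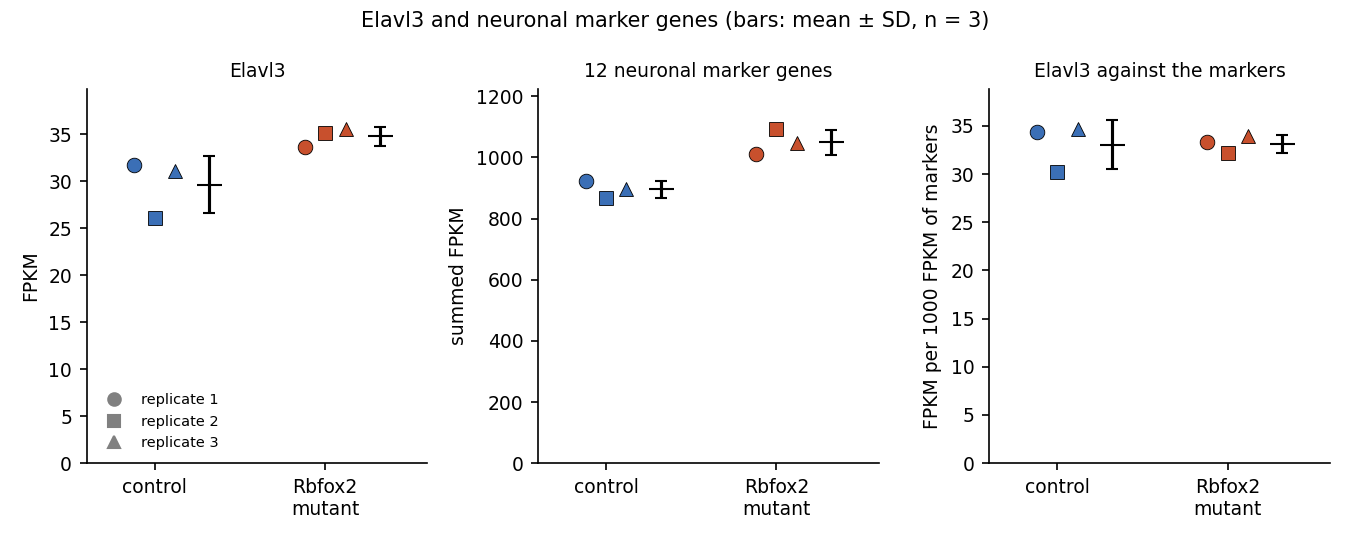
FPKM of *Elavl3*, summed FPKM of the 12 neuronal markers and the ratio of both in each sample, on linear axes from 0, with symbols for the replicate numbers and bars for the mean ± SD of 3 samples. Mutants lie above controls in the first 2 panels, whereas the ratio overlaps at means of 33.1 and 33.2.

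In the neuronal regulators outside the Hu/ELAV family, the SD of the controls was larger than the difference between the group means. The SD of the mutants was smaller than that difference for *Celf4*, *Srrm4* and *Khdrbs2*. *Nova1* and *Nova2*, which bind YCAY clusters in neuronal pre-mRNAs, had log2 fold changes of 0.33 (standard error 0.28) and 0.18 (standard error 0.15). *Nova1* had an FPKM of 8.16, 3.25 and 4.56 in controls and of 8.18, 6.29 and 5.45 in mutants, so that the first replicates were alike and the difference lay in replicates 2 and 3. Exons of *Nova2* overlap *Gm26821* on the opposite strand over 31.7% of their bases, and the strand setting of the counting was not given in the sources used here. The neuronal CELF genes *Celf3*, *Celf4* and *Celf5* had log2 fold changes of 0.18, 0.19 and 0.12 (standard errors 0.18, 0.16 and 0.19). *Celf6*, at an FPKM of 2.81 to 4.48, was under the filter. *Ptbp2*, the neuronal PTB paralog, had -0.029 (standard error 0.17), and *Srrm4*, which directs the inclusion of neuronal microexons, 0.095 (standard error 0.11). *Khdrbs2*, the neuronal STAR gene SLM1, had an FPKM of 3.87 to 5.71 and was also under the filter.

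The 12 neuronal regulators largely shared their order among the controls, but not among the mutants. Control replicate 2 was the lowest control for all 12 and the lowest of all 6 samples for 11, and control replicate 1 was the highest control for 11. Deviations from the group means set apart the first replicates only. Control replicate 3 correlated with mutant replicate 2 at 0.40, above the 0.26 within number 2. Differences within numbers 2 and 3 therefore follow the labels alone. Between the first replicates, 4 of the 12 were higher in the mutant, where 45.4% of all genes were. In replicates 2 and 3 alike, 11 of the 12 were higher in the mutant, and 10 of the 10 that were tested, where 34.7% of all genes were. *Khdrbs2* was the exception, with log2 differences of 0.058 and -0.41 in replicates 2 and 3. Of the 10 tested, *Nova1* and *Nova2* passed the filter through the mutants alone. The 12 genes are not independent cases, since they shared the low control replicate 2. *Ptbp2* went from -0.32 between the first replicates to 0.21 and 0.025 in the others.

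**Figure D5:**
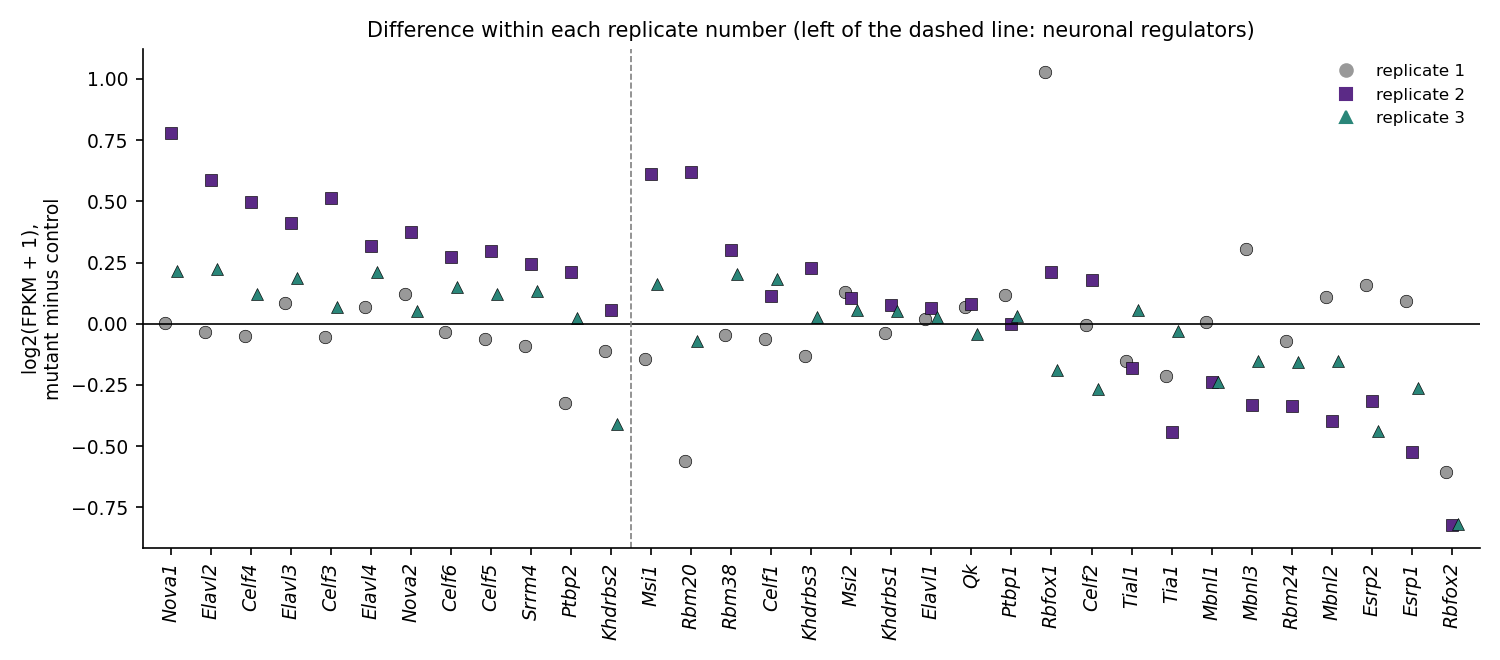
Difference in log2(FPKM + 1), mutant minus control, within each replicate number for the 33 splicing regulators, with the 12 neuronal ones to the left of the dashed line. The squares of replicate 2 lie above 0 for all 12 neuronal genes, the circles of replicate 1 lie near or below 0 for most of them, and all 3 symbols of *Rbfox2* lie between -0.82 and -0.61.

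Over all 33 regulators, 6 were higher in the mutant of every replicate number: *Nova1*, *Nova2*, *Elavl1*, *Elavl3*, *Elavl4* and *Msi2*. All 6 were among the 26 tested, *Nova1* and *Nova2* through the mutants alone, and 13.6% of all genes had this pattern. *Rbfox2*, *Tia1* and *Rbm24* were lower in every number, of which *Rbfox2* and *Tia1* were tested, where 13.1% of all genes had this pattern. When only replicates 2 and 3 were fitted, 11 of the regulators tested had an unadjusted p under 0.05, where 11% of all genes did. Of these 11, *Rbfox2*, *Mbnl2* and *Esrp1* were lower, and *Celf3*, *Celf4*, *Celf5*, *Nova1*, *Elavl2*, *Elavl3*, *Elavl4* and *Msi1* were higher; the share of all genes higher at this threshold was 5.27%. Without control replicate 1 there were also 11, of which *Rbfox2* and *Esrp1* were lower and *Celf3*, *Celf4*, *Celf5*, *Nova1*, *Elavl2*, *Elavl3*, *Elavl4*, *Rbm38* and *Msi1* higher, where 6.75% of all genes passed and 3% did so higher.

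Among the regulators not named here as neuronal, *Ptbp1*, *Khdrbs1* and *Qk* had log2 fold changes of 0.051, 0.030 and 0.036 (standard errors 0.079, 0.073 and 0.13). *Khdrbs3*, the STAR gene SLM2, had 0.040 (standard error 0.13). *Celf1* and *Celf2*, the broadly expressed CELF genes, had 0.079 and -0.030 (standard errors 0.11 and 0.13). *Tia1* and its paralog *Tial1* had -0.23 and -0.092 (standard errors 0.19 and 0.086). The *Tia1* difference was -0.21, -0.44 and -0.029 within replicates 1, 2 and 3, and its unadjusted p was 0.036 with the replicate block and 0.26 without (limma). *Msi1* and *Msi2* had 0.21 and 0.096 (standard errors 0.16 and 0.077). Exons of *Ptbp1* overlap other genes on the opposite strand over 20.7% of their bases.

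The muscleblind genes often act on the same exons as the CELF genes in the opposite direction during muscle and heart development. None of the 3 had an unadjusted p under 0.05 (limma) at the gene level. A gene-level FPKM does not show shifts between the transcripts of a gene, which were not tested for any regulator. *Mbnl1* and *Mbnl2* had log2 fold changes of -0.16 and -0.15 (standard errors 0.12 and 0.14). *Mbnl3* was under the filter at an FPKM of 4.08 to 5.93. All 3 were higher in the mutant of replicate 1 and lower in both mutants of replicates 2 and 3, the latter like 27.3% of all genes tested. Their summed FPKM in mutants was 91.1% of the control mean, with overlapping groups (exact permutation test, two-sided, p = 0.40). *Rbm38* had a log2 fold change of 0.15 (standard error 0.16). *Rbm20*, which controls titin splicing in striated muscle, and *Rbm24*, which promotes muscle exons, were under the filter at FPKM values of 2.10 to 3.90 and 3.81 to 5.31. The summed FPKM of 12 skeletal muscle markers was 182, 501 and 308 in controls and 174, 280.2 and 220.4 in mutants, 68.0% of the control mean in overlapping groups, and it was lower in the mutant of every replicate number (log2 differences of -0.064, -0.84 and -0.48). *Rbm24* amounted to 17.0 ± 8.26 FPKM per 1000 FPKM of these markers in controls and 19.2 ± 6.06 in mutants (SD, n = 3).

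*Esrp1* and *Esrp2*, which set epithelial splicing, were low throughout. *Esrp1* had an FPKM of 6.82, 10.1 and 8.69 in controls and of 7.34, 6.75 and 7.07 in mutants, and the log2 fold change was -0.23 (standard error 0.13). *Esrp2* was under the filter at 3.05 to 4.48. Together they reached 83.0% of the control mean in mutants, with overlapping groups (exact permutation test, two-sided, p = 0.20). Of the 12 epithelial markers, the 11 other than *Esrp1* summed to 154, 247 and 218 in controls and to 159, 200.02 and 158 in mutants, 83.5% of the control mean. Of their mean difference of -34.1 FPKM, *Krt5* made up -16.3 and *Krt14* -12.0, while *Krt18* and *Cldn6* had slightly higher means in mutants. Per 1000 FPKM of these markers, *Esrp1* and *Esrp2* amounted to 61.9 ± 4.22 in controls and 61.8 ± 10.7 in mutants (SD, n = 3), with overlapping groups. The part of the tissue's make-up in the *Esrp1* and *Esrp2* differences was not tested.

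The wider splicing machinery gave the setting for these values. Of 69 further regulators, 67 passed the filter and none had an unadjusted p under 0.05 (limma), where 1.66% of all genes did. Of the 67, 39 were higher (52.8% of all genes) and 28 lower, with log2 fold changes from -0.24 to 0.17. These comprised 13 SR proteins, which bind exonic enhancers and had a median log2 fold change of 0.012, and 24 hnRNPs, which often oppose them, with a median of 0.035. Among genes for proteins of the large assembly that Rbfox proteins join, *Matr3*, *Ilf2* and *Ddx5* had log2 fold changes of 0.080, 0.031 and -0.012. A further 26 tested regulators, *Rbfox3* among them, had a median of -0.013. In 1 of the 67 the groups did not overlap, against 5% of all genes. This gene, named after its value was seen, was *Rbm3*, a cold-inducible RNA-binding protein, at an FPKM of 346 ± 16.6 in controls and 297 ± 33.4 in mutants (SD, n = 3). With the replicate block, 2 of the 67 had an unadjusted p under 0.05, *Srsf5* and *Rbm3*, both lower, where 6% of all genes did.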

How the data were processed

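Poly(A)+ RNA of craniofacial tissue from 3 control and 3 mutant embryos was sequenced paired-end from TruSeq stranded libraries. The authors aligned the reads to GRCm38 and deposited gene-level FPKM values (STAR, Cuffdiff and FastQC 0.11.4 are named in the submitters' processing notes), and the files hold no read counts, so that no counting error could be computed from them and the sequencing depth was not used. The strand setting is not given in the sources used here. Replicates are separate biological samples per the labels.

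From these values, limma 3.58.1 (R 4.3.3; linear model with an intensity trend, tested on simulated data) was fitted to log2(FPKM + 1) of all 10061 genes with an FPKM over 5 in all controls or all mutants, with no covariate and Benjamini-Hochberg adjustment. Single values were compared by exact two-sided permutation (scipy 1.17.1, Python 3.11.15), for which the smallest p is 0.10. The members and lists were chosen with earlier results of these data known. Values of each sample are given for *Rbfox1*, *Rbfox2*, *Rbfox3*, members with an unadjusted p under 0.05 or with groups apart and the 5 highest by mean; those of *Nova1* and *Esrp1* were added after they were seen. Of the rows named *Qk*, ENSMUSG00000062078 was used, and the other, ENSMUSG00000044407, had at most 1.79 FPKM. Coordinates, exon overlaps and transcript sequences are from GENCODE M21 (GRCm38). Single values of some genes of the lists are not reported here.

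Deviations from the group means over the 10061 genes correlated at 0.64, 0.26 and 0.51 between samples with replicate numbers 1, 2 and 3. Between different numbers they correlated at -0.68 to 0.40. The 0.40, between control replicate 3 and mutant replicate 2, exceeded the 0.26 within number 2. The numbers were treated as pairs by their labels, which do not say what a number shares, and the values set apart the first replicates only. Alternatives were a pseudocount of 0.1, median-ratio scaling, quantile normalization, the replicate block, an FPKM over 1 or no filter, no trend, Y-linked expression as a covariate, a term for the first replicates, replicates 2 and 3 only, and each sample left out in turn.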

Additional observations from a re-analysis of the deposited data

How the results depend on the processing

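*Rbfox2* was lower in mutants under all 16 alternatives, with log2 fold changes of -0.83 to -0.71 and adjusted p-values from limma between 0.0296 and 0.954. The adjusted p was under 0.05 for this 1 member in 2 of them: with a term for the first replicates (log2 fold change -0.75, adjusted p = 0.0296, with 3 of all genes passing, 0.0298%) and in replicates 2 and 3 only (-0.82, adjusted p = 0.0407). No member passed when any 1 sample was left out, where its log2 fold change was -0.79 to -0.71. The count of members with an unadjusted p under 0.05 was 1 after median-ratio scaling, quantile normalization and the Y-linked covariate (172 to 176 of 10061 genes). It was 4 with the term for the first replicates (6.07% of all genes) and 11 in replicates 2 and 3 only (11%). When 1 sample was left out it was 1 to 11, with 11 without control replicate 1 (6.75%). Without control replicate 2 or 3 or mutant replicate 2 or 3 it was 1, where 78 to 137 of all genes passed. The count of members whose groups did not overlap was 2 to 15 when 1 sample was left out. It was 21 of 27 in replicates 2 and 3 only (45.2% of all genes), 15 of 27 without control replicate 1 (24.8%), 6 of 26 without mutant replicate 1 (24.3%) and 5 of 26 without mutant replicate 3 (10.1%). Of the 67 further regulators tested, 1 had an unadjusted p under 0.05 after median-ratio scaling (172 of 10061 genes) and after quantile normalization (176 of 10061). There were 3 with the term for the first replicates (6.07% of all genes), all lower. In replicates 2 and 3 only there were 6, of which 5 were lower (11% of all genes). When 1 sample was left out there were 0 to 3, with 3 without mutant replicate 1 (414 of 10148 genes). The cause of a moved count was not tested. The summed FPKM of *Rbfox1* and *Rbfox2* differed by -27.8 to -22.1 throughout.

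With replicate number entered as a block term, the unadjusted p was under 0.05 for 4 members and 2 further regulators, where it was for 6% of all genes. Those added by the block were *Elavl4* and *Tia1* among the members and *Srsf5* and *Rbm3* among the further regulators. The adjusted p of *Rbfox2* was 0.0852 (limma), and the block changed no call by adjusted p.

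Direction reversed for 10 members under at least 1 alternative. With the Y-linked covariate, *Celf5* was at -0.068, *Elavl1* at -0.024, *Qk* at -0.042, *Tial1* at 0.047 and *Msi2* at -0.00056. In replicates 2 and 3 only, *Ptbp2* was at 0.12. With 1 sample left out, the ranges were -0.12 to 0.089 for *Celf2*, -0.0048 to 0.37 for *Celf3*, -0.19 to 0.17 for *Ptbp2*, -0.028 to 0.11 for *Elavl1*, -0.025 to 0.17 for *Khdrbs3*, -0.069 to 0.12 for *Qk* and -0.0025 to 0.31 for *Rbm38*. The other 15 tested members besides *Rbfox2* kept their direction under every alternative. For the 7 members under the filter, every 95% interval included 0.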
